A study of Mus musculus with 30 samples.

Results

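The genes described here were 35 genes of the hypoxia response and of glycolysis, taken as a named list of mouse symbols and all found among the 53431 genes of the deposited table. RNA-seq of polyadenylated RNA had been run on 30 libraries of 2 mouse colon carcinoma lines from BALB/c mice, CT-26 and Colon 26, to compare the models as cultures and as tumors. The libraries fell into 8 groups, with 3 cultures of each line and 4 tumors of each model in each of the size classes of 100, 400 and 800 mm3. The exact tumor volumes ran from 103.33 to 938.57 mm3 in CT-26 and from 102.9 to 963.18 mm3 in Colon 26.

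The tumors were grown from cells implanted under the skin of female BALB/c mice, on the right flank. The host's own cells enter the tumors. The labels name no engineered allele, and since no sample is labelled with an antibody, the tumors were taken as untreated, although the labels' general text describes dosing with antibodies against CTLA-4, PD-1 and PD-L1. The labels call the replicates separate samples without saying whether cultures or mice were separate, so p-values measure the spread between these samples. Neither line is described as a single clone, and the animals' age is not given in the labels. Library totals ran from 21384730 to 39722586 counts. The 2 lines' cultures were numbered in different library series. The Colon 26 cultures, at 36042940 to 39722586 counts, were deeper than the CT-26 cultures, at 21384730 to 27856380. Library series and line cannot be told apart in culture. The cultures were also numbered apart from the tumors, the Colon 26 cultures furthest. Library series therefore cannot be told apart from the change from culture to tumor, or from its difference between the models. Of 10 colon epithelium markers, Epcam was at 0 in all 6 cultures, and Vil1 was at most 0.101 CPM, while Krt20 stood at 23.8 to 25.9 CPM in the CT-26 cultures and 5.5 to 5.93 in the Colon 26 cultures. The 10 summed to 44.2 to 45.5 CPM in the CT-26 cultures and 15.3 to 15.8 in the Colon 26 cultures. A sum of proliferation markers was 661 to 729 CPM in the CT-26 cultures and 1458 to 1551 CPM in the Colon 26 cultures. Line and this difference in proliferation markers cannot be told apart in culture. The leukocyte marker Ptprc was at most 0.206 CPM in the cultures and at least 43.7 CPM in every tumor. The 10 leukocyte markers together summed to 59.0 to 68.1 CPM in the CT-26 cultures, most of it Cd68 at 57.3 to 66.7 CPM, and to 4.24 to 5.4 CPM in the Colon 26 cultures. In these bulk samples, fewer cells of a type and less RNA per cell cannot be told apart.

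Cells sense oxygen through prolyl hydroxylases of the Egln family, which mark the alpha subunits Hif1a and Epas1 (HIF-2 alpha) for destruction while oxygen is present. When oxygen falls, the alpha subunits persist, pair with Arnt and switch on genes with a hypoxia response element, whose core is a short RCGTG motif. Their targets include glucose transporters, most enzymes of glycolysis, Pdk1, which keeps pyruvate out of the mitochondria, the lactate exporter Slc16a3 and the carbonic anhydrase Car9, which handles the acid that fermentation leaves. The control of the alpha subunits is largely at the protein level, which RNA-seq does not measure.

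The pattern over all 30 libraries had 4 features. Car9, Egln3, Slc16a3 and Pfkfb4 were higher in every Colon 26 tumor than in every CT-26 tumor, which 9.79% of all genes also were. Slc2a3, Pfkfb3, Aldoc, Adm and Epas1 were near 0 in the cultures of both lines and rose in the tumors. Among all genes, 22.2% were called higher in the 100 mm3 tumors than in culture in CT-26 and 20.8% in Colon 26. No member passed the test between tumor sizes or against tumor volume in either model, where 0.0% of all genes did in CT-26 and 0.0131% to 2.21% in Colon 26. Among tumors of one size, most members often stood high or low together in both models. The median within-size SD of the members was 0.44 on the log2 scale in CT-26 and 0.23 in Colon 26.

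**Figure D1:**
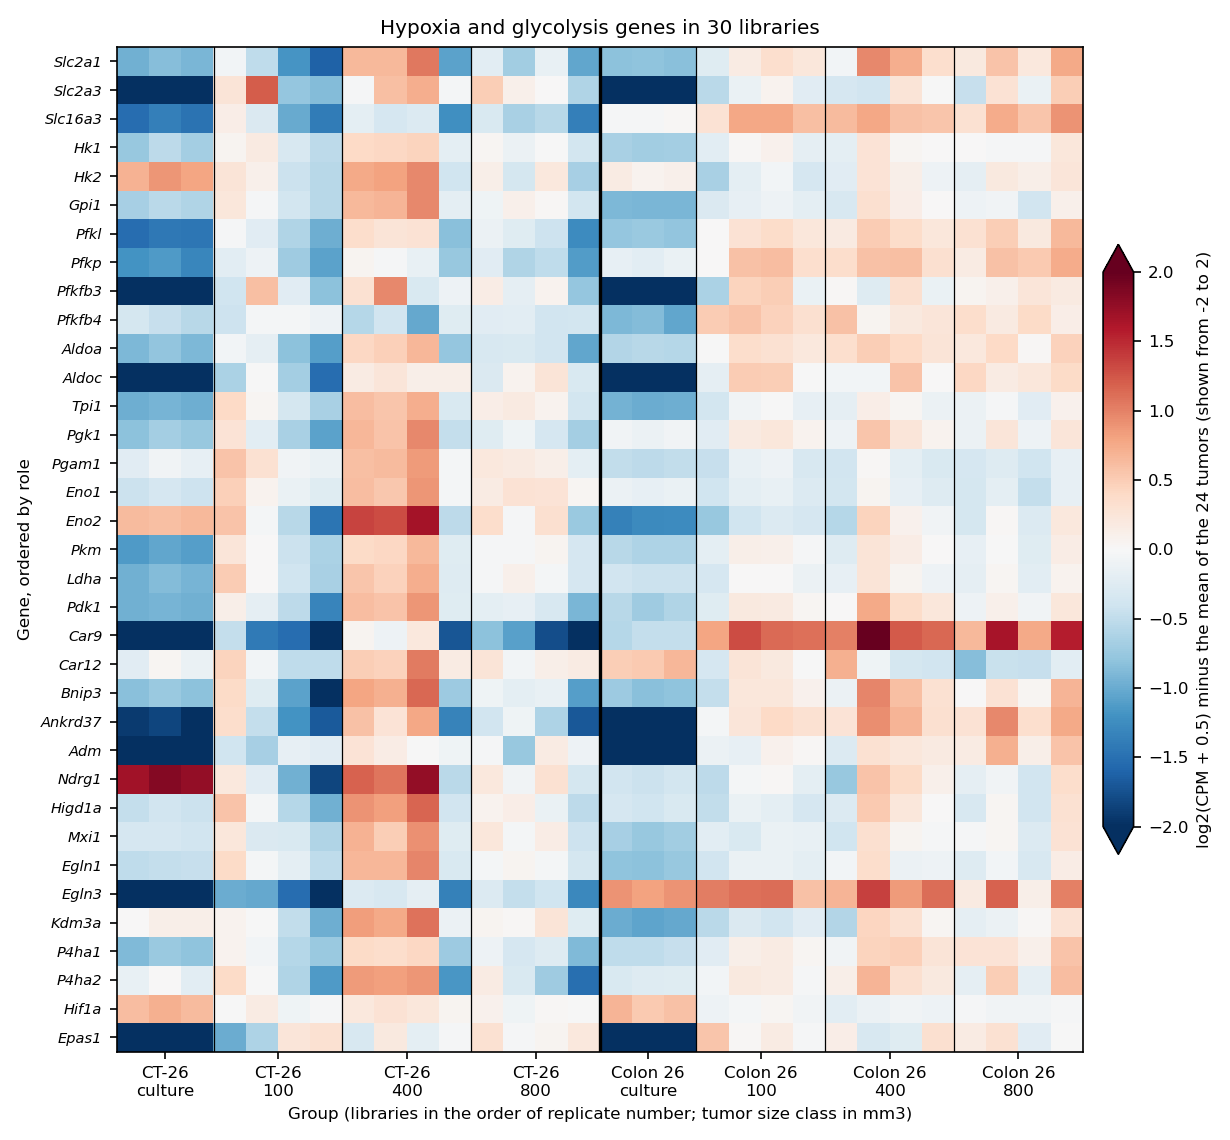
Heat map of the 35 genes (rows, ordered by role) in 30 libraries (columns, by group), colored by log2(CPM + 0.5) minus the mean of the 24 tumors. The fourth CT-26 tumor of 400 mm3 is pale or blue in most rows beside 3 red neighbors, and Hif1a is nearly even across the tumors.

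Levels are given as CPM, the counts scaled to the library total with TMM factors over the 30 libraries. FPKM, which also divides by gene length, is used only to compare genes with each other. Fold changes are on the log2 scale from edgeR's quasi-likelihood test, with p-values adjusted by Benjamini-Hochberg over all genes tested. The SE printed with them was calculated back from that test, as the absolute log2 fold change or slope over the square root of the F statistic. It is not a fitted standard error, and at few counts, as for Egln3 or Adm in culture, it can understate the uncertainty. A gene was called where its adjusted p did not exceed 0.1 and its log2 fold change reached 1 in either direction. Values of the models are Colon 26 over CT-26.

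Between the cultures, 7 of the 31 members tested were called, 4 higher and 3 lower in Colon 26, where 22.9% of the 14334 genes tested were called. The members not tested there, Slc2a3, Pfkfb3, Adm and Epas1, had too few counts. Between the tumors, 3 members were called at 100 mm3 (background 13.2%), 4 at 400 mm3 (14.3%) and 5 at 800 mm3 (14.1%), out of 35 tested each time. The members' share was below that background at 100 and 400 mm3 and close to it in culture and at 800 mm3 (14.3% of the members), so the counts do not set the list apart from other genes. The median log2 difference of the members was 0.30, -0.28 and 0.22 at 100, 400 and 800 mm3, where that of all genes lay within 0.03 of 0. Against the cultures, 10 members were called in the CT-26 tumors of 100 mm3, 9 of them higher (background 22.2% higher and 10.1% lower), and 10 in the Colon 26 tumors, all higher (background 20.8% and 6.12%). The 2 models share no samples in these comparisons. The median log2 change from culture to tumor was 0.45 for the members in CT-26, where that of all genes was 0.06, and 0.71 in Colon 26, where that of all genes was 0.05.

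Hypoxia response element cores were searched in the RefSeq promoters of the members (GRCm38.p6), as the letters ACGTG or GCGTG on either strand in the 250 bases before each annotated start. Of the 35 members, 32 had a promoter in the table, and 28 of these (87.5%) held at least 1 core, beside 59.3% of the genes tested between the 100 mm3 tumors and 41.5% of all 27025 genes in the table. The members' promoters were also richer in G and C, with a median of 62.8% beside 59.2% and 52.4%, and overlapping cores on both strands were each counted. The promoters of Gpi1, Tpi1, Eno2 and Car12 held no core in this window. Stretches of 5 promoters are shown, with the cores in capitals and positions counted back from the RefSeq start. Car9, Slc16a3 and Egln3 are shown because they were called between the models at every tumor size, and Bnip3 and Ankrd37 because they had the most cores among the members with a wide spread between tumors of one size. A match is only a run of letters, and binding was not measured.
Car9: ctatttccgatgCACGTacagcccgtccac
Slc16a3: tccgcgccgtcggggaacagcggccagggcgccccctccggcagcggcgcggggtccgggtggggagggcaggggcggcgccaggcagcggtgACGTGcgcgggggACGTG
Egln3: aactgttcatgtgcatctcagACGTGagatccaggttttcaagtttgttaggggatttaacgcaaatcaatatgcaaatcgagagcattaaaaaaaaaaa
Bnip3: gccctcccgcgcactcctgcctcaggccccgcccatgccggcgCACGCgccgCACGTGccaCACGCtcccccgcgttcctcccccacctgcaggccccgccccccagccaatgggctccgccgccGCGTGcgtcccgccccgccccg
Ankrd37: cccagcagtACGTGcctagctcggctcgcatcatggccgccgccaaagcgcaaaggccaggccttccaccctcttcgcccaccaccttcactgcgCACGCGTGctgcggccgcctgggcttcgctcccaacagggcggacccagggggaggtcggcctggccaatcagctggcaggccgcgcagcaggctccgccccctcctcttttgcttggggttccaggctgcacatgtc
The Car9 stretch (chr4:43506996-43507025, plus strand) covers the last 30 bases before its start and lies within an exon annotated by GENCODE. The Slc16a3 stretch (chr11:120948947-120949057, plus strand) holds 2 cores within 30 bases of the start, and 5 of its bases lie in an annotated exon. The Egln3 stretch (chr12:54204025-54204124, minus strand) is the far end of its promoter and holds the only core found there. The Bnip3 stretch (chr7:138909520-138909666, minus strand) holds 5 matches, of which the palindrome CACGTG gives 2. The Ankrd37 stretch (chr8:45999868-46000100, minus strand) holds 3 matches, and another core of that promoter, 6 bases before the start, is not printed.

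The alpha subunits came first by role. In culture, Hif1a was at 221, 235 and 222 CPM in CT-26 and 229, 205 and 215 CPM in Colon 26. Hif1a in CT-26 tumors was at 143, 161, 135 and 142 CPM at 100 mm3, 165, 176, 168 and 149.7 CPM at 400 mm3 and 151, 135, 145 and 143 CPM at 800 mm3. Hif1a in Colon 26 tumors was at 134, 139, 147 and 137 CPM at 100 mm3, 124, 132, 137 and 134 CPM at 400 mm3 and 141, 136, 137 and 142 CPM at 800 mm3. Hif1a transcript was lower in every tumor than in every culture of its model, and it was the most even member, with a spread between tumors of one size of 0.09 on the log2 scale in CT-26 and 0.05 in Colon 26. The log2 change from culture to 100 mm3 tumor was -0.64 ± 0.070 (SE, adjusted p = 7.2e-05) in CT-26 and -0.56 ± 0.046 (SE, adjusted p = 5.7e-06) in Colon 26, both below the minimum fold. The models differed by -0.32 ± 0.064 (SE, adjusted p = 0.0034) at 400 mm3, where all 4 Colon 26 tumors were below all 4 CT-26 tumors, and their groups overlapped at 100 and 800 mm3. In culture, Epas1 was at 0, 0 and 0.0411 CPM in CT-26 and 0, 0 and 0 CPM in Colon 26. Epas1 in CT-26 tumors was at 8.01, 10.4, 19.5 and 20.3 CPM at 100 mm3, 12.9, 18.9, 14.3 and 16 CPM at 400 mm3 and 20.3, 16.1, 17.1 and 19 CPM at 800 mm3. Epas1 in Colon 26 tumors was at 24.1, 16.6, 18.3 and 16.1 CPM at 100 mm3, 18, 13, 13.7 and 20.5 CPM at 400 mm3 and 18.4, 20.4, 13.9 and 16.3 CPM at 800 mm3. Epas1, known for its high expression in endothelium, was at or under the floor of 3 counts in every culture and present in every tumor. The tumors of 100 mm3 were at least 118-fold above the cultures in CT-26 and at least 237-fold in Colon 26, taking 3 counts per library as the cultures' level. Over the CT-26 tumors of 100 mm3, Epas1 ran opposite to most members, lowest in replicate 1 and highest in replicate 4. The summed level of 8 endothelial markers, 92.4, 128, 269 and 221 CPM in these 4 tumors, was lowest in replicate 1 as well, and its part in the Epas1 values was not tested.

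Among the oxygen sensors, Egln1, the main hydroxylase of Hif1a, was measured at 78.3 to 101 CPM in the cultures and had a log2 change of 0.68 ± 0.065 in Colon 26 tumors of 100 mm3 (adjusted p = 1.4e-05), below the minimum fold. Egln3, the hydroxylase that hypoxia induces most strongly, was the member with the largest difference between the cultures. In culture, Egln3 was at 0.0901, 0.112 and 0.247 CPM in CT-26 and 15.6, 14.6 and 15.8 CPM in Colon 26. Egln3 in CT-26 tumors was at 3.86, 3.78, 2.54 and 1.38 CPM at 100 mm3, 6.67, 6.44, 7.2 and 2.89 CPM at 400 mm3 and 6.69, 5.73, 6.08 and 3.06 CPM at 800 mm3. Egln3 in Colon 26 tumors was at 17.1, 18.1, 18.4 and 12.6 CPM at 100 mm3, 13.4, 21.9, 15.2 and 18.3 CPM at 400 mm3 and 9.32, 19.2, 8.94 and 16.9 CPM at 800 mm3. The CT-26 cultures held 2, 3 and 6 counts of Egln3, and the Colon 26 cultures more than 500 each, so the groups were far apart. With so few counts, the SE of the difference in culture can be too small. Egln3 was higher in Colon 26 by 6.6 ± 0.17 (SE, adjusted p = 5.1e-15) in culture, 2.52 ± 0.29 (SE, adjusted p = 0.00015) at 100 mm3, 1.57 ± 0.28 (SE, adjusted p = 0.0018) at 400 mm3 and 1.33 ± 0.31 (SE, adjusted p = 0.0045) at 800 mm3. No tumor of one model overlapped the other. In CT-26 the tumors of 100 mm3 were above the cultures by 4.22 ± 0.53 (SE, adjusted p = 0.00016), while in Colon 26 the change was 0.19 ± 0.12 (SE, adjusted p = 0.17), and the difference between those changes was called (-4.08 ± 0.53 SE, adjusted p = 2.9e-05). Kdm3a, a hypoxia-induced histone demethylase, went the other way between the cultures of the lines. In culture, Kdm3a was at 113, 121 and 122 CPM in CT-26 and 55.9, 53.9 and 54.9 CPM in Colon 26. Kdm3a in CT-26 tumors was at 117, 112, 79.9 and 56.8 CPM at 100 mm3, 201, 189, 239 and 103 CPM at 400 mm3 and 117, 114, 133 and 94.6 CPM at 800 mm3. Kdm3a in Colon 26 tumors was at 77.1, 91.8, 85.4 and 95.1 CPM at 100 mm3, 74.7, 150.5, 139 and 115 CPM at 400 mm3 and 98.3, 103, 114 and 136 CPM at 800 mm3. It was lower in the Colon 26 cultures, at -1.15 ± 0.033 (SE, adjusted p = 1.7e-14), with no overlap. From culture to 100 mm3 tumor it had a log2 change of -0.39 ± 0.22 in CT-26 (adjusted p = 0.16) and 0.75 ± 0.075 in Colon 26 (adjusted p = 1.9e-05), and the difference of the changes was called (1.09 ± 0.26 SE, adjusted p = 0.0038). In the tumors the models overlapped at all sizes and Kdm3a was not called.

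**Figure D2:**
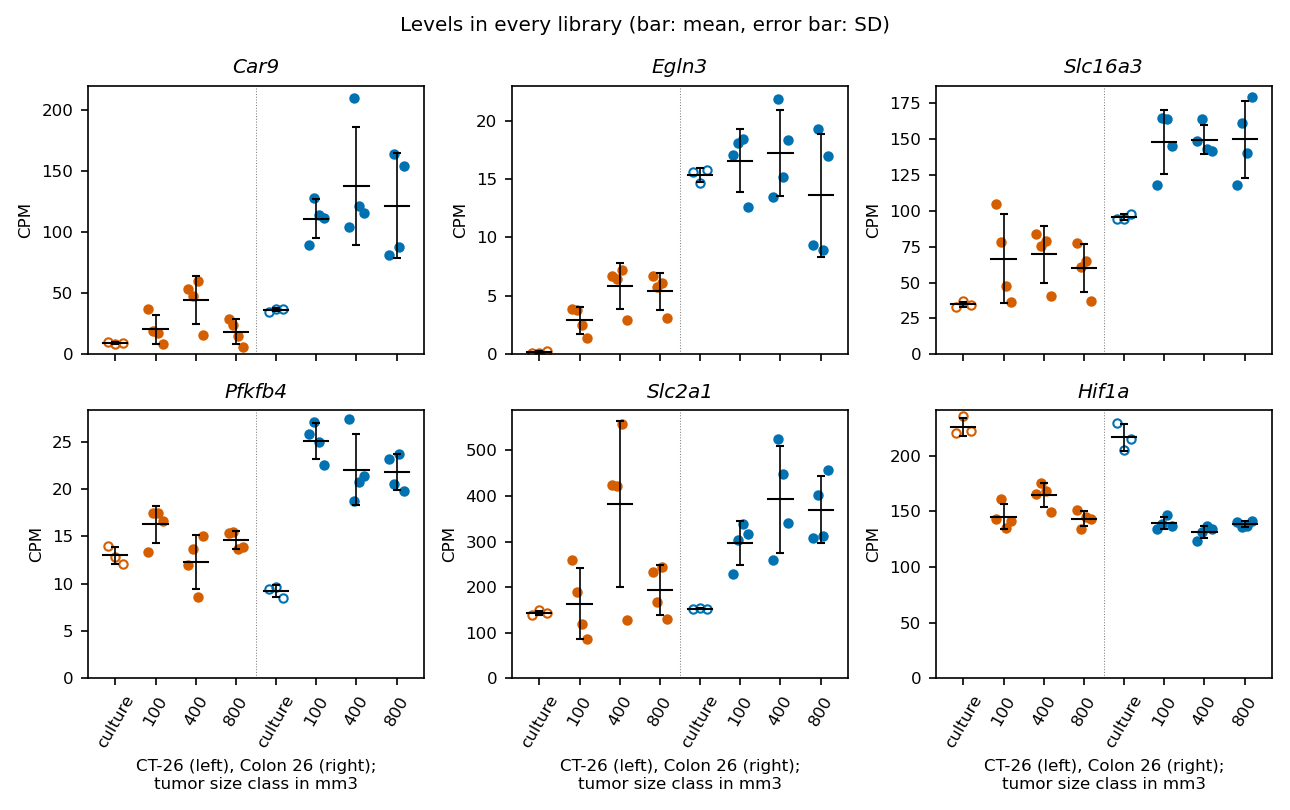
CPM of 6 genes in every library by model and group; open points are cultures, filled points tumors, bars the mean and error bars the SD (n = 3 cultures or 4 tumors). Car9, Egln3, Slc16a3 and Pfkfb4 separate all 12 Colon 26 tumors from all 12 CT-26 tumors, Slc2a1 does not, and Hif1a is lower in every tumor than in every culture.

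Of the transporters, Slc2a1 (GLUT1) is the basal glucose carrier of most tumor cells. In culture, Slc2a1 was at 139, 149 and 143 CPM in CT-26 and 152, 154 and 151 CPM in Colon 26. Slc2a1 in CT-26 tumors was at 260.2, 189.7, 118 and 87.4 CPM at 100 mm3, 423, 421, 558 and 128 CPM at 400 mm3 and 234, 167, 243 and 131 CPM at 800 mm3. Slc2a1 in Colon 26 tumors was at 229, 303, 339 and 316 CPM at 100 mm3, 259, 524, 449 and 339.6 CPM at 400 mm3 and 308, 402, 312 and 458 CPM at 800 mm3. The cultures of the lines were nearly level, and the CT-26 tumors ranged over 6.39-fold against 2.29-fold in Colon 26. Slc2a1 rose in the Colon 26 tumors of 100 mm3 by 1.04 ± 0.12 (SE, adjusted p = 4.7e-05) and had a log2 change of 0.18 ± 0.33 (SE, adjusted p = 0.64) in CT-26, and the difference of the changes, 0.81 ± 0.38 (SE, adjusted p = 0.1), was not called. Between the models it differed by 0.86 ± 0.31 (SE, adjusted p = 0.046) at 100 mm3 and 0.92 ± 0.20 (SE, adjusted p = 0.0036) at 800 mm3, under the minimum fold, and by 0.04 ± 0.39 (SE, adjusted p = 0.95) at 400 mm3. In culture, Slc2a3 was at 0, 0 and 0 CPM in CT-26 and 0, 0 and 0.0257 CPM in Colon 26. Slc2a3 in CT-26 tumors was at 6.14, 12.3, 2.73 and 2.54 CPM at 100 mm3, 4.97, 7.95, 8.71 and 4.89 CPM at 400 mm3 and 7.28, 5.44, 5.1 and 3.15 CPM at 800 mm3. Slc2a3 in Colon 26 tumors was at 3.3, 4.57, 5.29 and 4.24 CPM at 100 mm3, 3.91, 3.75, 6.11 and 5.02 CPM at 400 mm3 and 3.55, 6.28, 4.58 and 7.28 CPM at 800 mm3. Slc2a3 (GLUT3), a high-affinity carrier of neurons and leukocytes, had at most 1 count in any culture and was at least 48.1-fold above that floor in the CT-26 tumors of 100 mm3 and at least 55-fold in those of Colon 26. In culture, Slc16a3 was at 33.2, 36.9 and 34.1 CPM in CT-26 and 94.4, 94.4 and 97.9 CPM in Colon 26. Slc16a3 in CT-26 tumors was at 105, 78.5, 47.4 and 36.1 CPM at 100 mm3, 84, 75.5, 79 and 40.5 CPM at 400 mm3 and 77.5, 61.1, 64.8 and 37 CPM at 800 mm3. Slc16a3 in Colon 26 tumors was at 118, 165, 164 and 145 CPM at 100 mm3, 149, 164, 143 and 142 CPM at 400 mm3 and 118, 161, 140.5 and 179.8 CPM at 800 mm3. Slc16a3 (MCT4) was higher in Colon 26 in culture (1.42 ± 0.035 SE, adjusted p = 3e-15) and at 100 (1.15 ± 0.30 SE, adjusted p = 0.012), 400 (1.1 ± 0.20 SE, adjusted p = 0.0021) and 800 mm3 (1.31 ± 0.21 SE, adjusted p = 0.00046), and all 12 Colon 26 tumors were above all 12 CT-26 tumors. Its change from culture to tumor was 0.93 ± 0.33 (SE, adjusted p = 0.034) in CT-26 and 0.71 ± 0.11 (SE, adjusted p = 0.00031) in Colon 26, below the minimum fold in both.

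Hexokinases trap glucose in the cell as its phosphate, and Gpi1 isomerizes it. Hk2, the hypoxia-inducible form, read lower in the tumors of 100 mm3 than in the cultures of both lines, with log2 changes of -0.91 ± 0.19 in CT-26 (adjusted p = 0.0028) and -0.33 ± 0.12 in Colon 26 (adjusted p = 0.033), while Hk1 read higher, at 0.52 ± 0.16 (adjusted p = 0.02) and 0.69 ± 0.074 (adjusted p = 3.1e-05), all under the minimum fold. Per length, Hk2 exceeded Hk1 in all 3 CT-26 cultures, at a mean of 35 against 28.7 FPKM, and Hk1 exceeded Hk2 in every library of the other 7 groups, by 1.23 to 2.85 times. Gpi1 had a log2 change of 0.80 ± 0.050 (adjusted p = 8.3e-07) in Colon 26 tumors of 100 mm3 and was not called in any comparison.

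Phosphofructokinase commits sugar to glycolysis, and the Pfkfb enzymes make its activator. In culture, Pfkfb3 was at 0.27, 0.672 and 0.74 CPM in CT-26 and 0.0847, 0.0504 and 0.0771 CPM in Colon 26. Pfkfb3 in CT-26 tumors was at 21, 42.6, 23.8 and 15.5 CPM at 100 mm3, 34.4, 54.4, 22.3 and 25.9 CPM at 400 mm3 and 30.8, 24.5, 29 and 16.1 CPM at 800 mm3. Pfkfb3 in Colon 26 tumors was at 17.7, 38.2, 39.3 and 25.4 CPM at 100 mm3, 28.1, 23.1, 34.9 and 25.2 CPM at 400 mm3 and 28.8, 30, 32.9 and 31.7 CPM at 800 mm3. Pfkfb3 had 6 to 18 counts in the CT-26 cultures and 2 or 3 in those of Colon 26, and more than 400 in every tumor. In CT-26 it rose by 5.49 ± 0.48 (SE, adjusted p = 2.2e-05). In Colon 26 it was at least 381-fold higher in the tumors of 100 mm3 than the floor of the cultures, and the tumors of the models overlapped at every size. In culture, Pfkfb4 was at 14, 12.9 and 12.1 CPM in CT-26 and 9.43, 9.68 and 8.48 CPM in Colon 26. Pfkfb4 in CT-26 tumors was at 13.4, 17.5, 17.5 and 16.7 CPM at 100 mm3, 11.9, 13.6, 8.56 and 15.1 CPM at 400 mm3 and 15.3, 15.5, 13.7 and 13.9 CPM at 800 mm3. Pfkfb4 in Colon 26 tumors was at 25.8, 27.1, 24.9 and 22.6 CPM at 100 mm3, 27.4, 18.7, 20.7 and 21.4 CPM at 400 mm3 and 23.2, 20.5, 23.7 and 19.8 CPM at 800 mm3. Pfkfb4 rose in the Colon 26 tumors (1.53 ± 0.081 SE, adjusted p = 3.1e-07) and had a log2 change of 0.32 ± 0.12 in CT-26 (adjusted p = 0.048), and the difference of the changes was called (1.16 ± 0.15 SE, adjusted p = 2.6e-05). It was lower in the Colon 26 cultures than in those of CT-26 (-0.53 ± 0.081 SE, adjusted p = 1.7e-05) and higher in the tumors, by 0.62 ± 0.10 (SE, adjusted p = 0.00088) at 100 mm3, 0.85 ± 0.19 (SE, adjusted p = 0.0063) at 400 mm3 and 0.57 ± 0.086 (SE, adjusted p = 0.00035) at 800 mm3. These differences were under the minimum fold, although no tumor of one model overlapped the other. Per length, Pfkfb4 was above Pfkfb3 in all 6 cultures, and in the tumors neither was above the other in every library except at 400 mm3 in CT-26, where Pfkfb3 was higher in all 4.

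Of the kinase itself, Pfkl rose from culture to 100 mm3 tumor in both lines, by 1.05 ± 0.21 (SE, adjusted p = 0.002) in CT-26 and 1.08 ± 0.080 (SE, adjusted p = 2.5e-06) in Colon 26, with a difference of -0.02 ± 0.24 (SE, adjusted p = 0.99). In culture, Pfkp was at 44.7, 46.7 and 41.4 CPM in CT-26 and 92.1, 89.1 and 94 CPM in Colon 26. Pfkp in CT-26 tumors was at 89.1, 96.7, 63 and 49.1 CPM at 100 mm3, 107, 102, 92.9 and 60.9 CPM at 400 mm3 and 88.7, 68.4, 72.9 and 47.2 CPM at 800 mm3. Pfkp in Colon 26 tumors was at 104, 156, 159 and 131 CPM at 100 mm3, 133, 156, 156 and 129 CPM at 400 mm3 and 116, 156, 149 and 174 CPM at 800 mm3. Pfkp was called higher in Colon 26 in culture (1.02 ± 0.039 SE, adjusted p = 6.7e-13) and at 800 mm3 (1.09 ± 0.18 SE, adjusted p = 0.00063), and differed by 0.88 ± 0.22 (SE, adjusted p = 0.0099) at 100 mm3 and 0.67 ± 0.16 (SE, adjusted p = 0.0096) at 400 mm3, with no overlap in any of these groups. Its exons overlap those of Pitrm1 on the opposite strand over 748 bases, and Pitrm1's counts equalled 79.7% of Pfkp's over all libraries. How strand was handled in counting is not given in the sources used here, so reads of the overlap cannot be told apart.

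Several enzymes of glycolysis were among the most abundant members. In the 24 tumors, Pkm, the pyruvate kinase, ranged from 2207 to 5354 CPM, Pgk1 from 991 to 4050 and Aldoa from 575 to 1958. From culture to 100 mm3 tumor, Pkm, Tpi1 and Aldoa had log2 changes of 0.92 ± 0.20, 0.86 ± 0.22 and 0.38 ± 0.24 in CT-26 and of 0.68 ± 0.081, 0.91 ± 0.081 and 0.88 ± 0.083 in Colon 26, and none was called. Pgam1 was lower in Colon 26 tumors at 100, 400 and 800 mm3 (adjusted p = 0.045, 0.0077 and 0.0064), at -0.45 ± 0.16, -0.75 ± 0.18 and -0.38 ± 0.095, under the minimum fold. In culture, Aldoc was at 0.36, 0.485 and 0.452 CPM in CT-26 and 0.169, 0.252 and 0.283 CPM in Colon 26. Aldoc in CT-26 tumors was at 3.74, 6.0, 3.61 and 1.79 CPM at 100 mm3, 6.86, 7.27, 6.58 and 6.64 CPM at 400 mm3 and 4.87, 6.42, 7.35 and 4.79 CPM at 800 mm3. Aldoc in Colon 26 tumors was at 5.29, 8.79, 8.69 and 6.06 CPM at 100 mm3, 5.85, 5.8, 9.28 and 6.11 CPM at 400 mm3 and 8.22, 6.85, 7.2 and 8.08 CPM at 800 mm3. Aldoc, the brain-type aldolase, rose in the tumors of both lines, by 3.11 ± 0.44 (SE, adjusted p = 0.00032) in CT-26 and 4.99 ± 0.29 (SE, adjusted p = 5.8e-07) in Colon 26, and the difference of the changes was called (1.83 ± 0.58 SE, adjusted p = 0.02), with 6 to 13 counts in each culture. Aldoa stayed the main form, at 109 times Aldoc's CPM or more in every library.

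In culture, Eno2 was at 150.2, 146 and 152 CPM in CT-26 and 37.2, 39.6 and 40.1 CPM in Colon 26. Eno2 in CT-26 tumors was at 143, 94.1, 65.1 and 34.8 CPM at 100 mm3, 247, 239, 307 and 67.1 CPM at 400 mm3 and 124, 94.6, 121 and 57.6 CPM at 800 mm3. Eno2 in Colon 26 tumors was at 57, 72.6, 79.5 and 76.1 CPM at 100 mm3, 64.5, 131, 102 and 92.1 CPM at 400 mm3 and 75, 97.7, 79.7 and 112 CPM at 800 mm3. Eno2, the enolase known from neurons, was 1 of 3 members called lower in the Colon 26 cultures (-1.97 ± 0.041 SE, adjusted p = 3.7e-16). From culture to 100 mm3 tumor it had a log2 change of -0.84 ± 0.38 (SE, adjusted p = 0.082) in CT-26, where the 4 tumors were all below the 3 cultures, and of 0.95 ± 0.11 (SE, adjusted p = 4.4e-05) in Colon 26, where they were all above, and the difference of the changes was called (1.74 ± 0.45 SE, adjusted p = 0.006). At 400 mm3 it was lower in Colon 26, at -1.14 ± 0.41 (SE, adjusted p = 0.048), although the fourth CT-26 tumor lay within the Colon 26 range. The main enolase, Eno1, is uncertain: stretches over 99% identical to Eno1 are annotated as Eno1b and Gm4735, whose counts equalled 96.0% and 74.5% of Eno1's, so reads may be split among them. The 3 summed to 2483 ± 74.1 CPM (SD, n = 3) in CT-26 cultures and 3401 ± 760 (SD, n = 4), 4929 ± 1332 and 3739 ± 328 CPM in tumors of 100, 400 and 800 mm3, and to 2919 ± 27.2, 2763 ± 187, 2930 ± 448 and 2639 ± 260 CPM in the same order in Colon 26. Smaller shares applied to Pgk1, where the counts of the copy Pgk1-rs7 equalled 4.37% of Pgk1's, and to Bnip3, where those of AC160336.1 equalled 5.78%.

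At the fate of pyruvate, Ldha makes lactate. In culture, Ldha was at 1133, 1213 and 1161 CPM in CT-26 and 1688, 1631 and 1639 CPM in Colon 26. Ldha in CT-26 tumors was at 3158, 2212, 1678 and 1402 CPM at 100 mm3, 3242, 3042, 3658 and 1853 CPM at 400 mm3 and 2172, 2359, 2161 and 1759 CPM at 800 mm3. Ldha in Colon 26 tumors was at 1755, 2230.3, 2219.7 and 2039 CPM at 100 mm3, 1962, 2635, 2303 and 2063 CPM at 400 mm3 and 1945, 2271, 1906 and 2320.4 CPM at 800 mm3. Ldha differed between the cultures by 0.46 ± 0.024 (SE, adjusted p = 3.2e-11), and between the tumors by -0.04 ± 0.23, -0.39 ± 0.20 and -0.01 ± 0.11 at 100, 400 and 800 mm3 (adjusted p = 0.91, 0.13 and 0.93). It was higher in tumors of 100 mm3 than in culture by 0.85 ± 0.25 (SE, adjusted p = 0.015) in CT-26 and 0.40 ± 0.084 (SE, adjusted p = 0.0021) in Colon 26, and in both models every tumor was above every culture. In culture, Pdk1 was at 46, 47.2 and 45.9 CPM in CT-26 and 61.3, 54.7 and 59.2 CPM in Colon 26. Pdk1 in CT-26 tumors was at 97.1, 79.8, 62.4 and 35.6 CPM at 100 mm3, 139, 133, 166 and 75.8 CPM at 400 mm3 and 78.1, 80.1, 71.9 and 47.7 CPM at 800 mm3. Pdk1 in Colon 26 tumors was at 75.8, 103, 102 and 92.7 CPM at 100 mm3, 90, 153, 116 and 106 CPM at 400 mm3 and 83.6, 96.4, 86 and 105 CPM at 800 mm3. Pdk1 had a log2 change of 0.76 ± 0.11 (SE, adjusted p = 0.00017) in Colon 26, where all tumors were above all cultures, and had a log2 change of 0.56 ± 0.29 (SE, adjusted p = 0.12) in CT-26, where the fourth tumor of 100 mm3 was below the cultures. Between the models the Pdk1 groups did not overlap in culture (0.30 ± 0.042 SE, adjusted p = 7.6e-06) or at 800 mm3 (0.41 ± 0.15 SE, adjusted p = 0.044), and Pdk1 was not called.

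Car9 is the tumor-associated carbonic anhydrase at the cell surface and a standard marker of hypoxia. In culture, Car9 was at 9.64, 7.95 and 9.13 CPM in CT-26 and 34.8, 37 and 36.9 CPM in Colon 26. Car9 in CT-26 tumors was at 36.7, 19.1, 17.7 and 7.98 CPM at 100 mm3, 53.6, 47.8, 59.9 and 15.4 CPM at 400 mm3 and 28.9, 24.2, 14.8 and 5.5 CPM at 800 mm3. Car9 in Colon 26 tumors was at 89.7, 128, 114 and 112 CPM at 100 mm3, 104, 209, 122 and 115 CPM at 400 mm3 and 81.5, 163, 87.7 and 154 CPM at 800 mm3. Every Colon 26 tumor, at 81.5 CPM or more, was above every CT-26 tumor, at 59.9 CPM or less, and the same held between the cultures. Car9 was higher in Colon 26 by 2.0 ± 0.070 (SE, adjusted p = 2.1e-13) in culture, 2.45 ± 0.38 (SE, adjusted p = 8e-04) at 100 mm3, 1.64 ± 0.39 (SE, adjusted p = 0.0086) at 400 mm3 and 2.72 ± 0.44 (SE, adjusted p = 0.00052) at 800 mm3. It rose from culture to 100 mm3 tumor by 1.18 ± 0.44 (SE, adjusted p = 0.039) in CT-26, where replicate 4 at 7.98 CPM lay within the cultures, and by 1.7 ± 0.11 (SE, adjusted p = 1.4e-06) in Colon 26, and the difference of the changes was not called (0.47 ± 0.47 SE, adjusted p = 0.46). Over all 24 tumors, 4 members had every Colon 26 value above every CT-26 value and 0 had the reverse, beside 9.79% and 12.7% of the 15890 genes tested at any size. Its relative Car12 differed by -0.64 ± 0.15 (SE, adjusted p = 0.0047) at 800 mm3, where the groups did not overlap, and was not called in any comparison.

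Of the other hypoxia-response genes, Ankrd37 encodes a small ankyrin-repeat protein. In culture, Ankrd37 was at 5.72, 6.12 and 5.26 CPM in CT-26 and 4.35, 4.79 and 5.06 CPM in Colon 26. Ankrd37 in CT-26 tumors was at 29.5, 16.4, 9.83 and 6.81 CPM at 100 mm3, 34.7, 28, 39.8 and 8.81 CPM at 400 mm3 and 17.5, 21.7, 14.9 and 6.76 CPM at 800 mm3. Ankrd37 in Colon 26 tumors was at 22.5, 27.5, 30.5 and 28.6 CPM at 100 mm3, 27.8, 44.5, 37.3 and 28.8 CPM at 400 mm3 and 28.3, 45.3, 29.2 and 39.5 CPM at 800 mm3. It rose from culture in both lines, by 1.45 ± 0.46 (SE, adjusted p = 0.022) in CT-26 and 2.61 ± 0.12 (SE, adjusted p = 1.5e-07) in Colon 26, with a called difference of 1.11 ± 0.51 (SE, adjusted p = 0.094). Ankrd37 was called higher in Colon 26 at 800 mm3 (1.21 ± 0.30 SE, adjusted p = 0.0063) and overlapped between the models at 100 and 400 mm3. Its exons overlap Ufsp2 over 57 bases and Lrp2bp over 349 bases on the opposite strand. In culture, Ndrg1 was at 1905, 2132 and 2023 CPM in CT-26 and 458, 443 and 460.2 CPM in Colon 26. Ndrg1 in CT-26 tumors was at 687, 507, 307 and 167 CPM at 100 mm3, 1356, 1252, 2025 and 409 CPM at 400 mm3 and 687, 568, 735 and 465 CPM at 800 mm3. Ndrg1 in Colon 26 tumors was at 415, 579, 607 and 518 CPM at 100 mm3, 351, 880.2, 780.0 and 636 CPM at 400 mm3 and 525, 565, 456 and 762 CPM at 800 mm3. Ndrg1, a stress-induced gene that is among the most used hypoxia markers, was lower in the Colon 26 cultures, at -2.19 ± 0.028 (SE, adjusted p = 1.5e-18). In CT-26 it fell from culture to 100 mm3 tumor by 2.28 on the log2 scale (SE 0.40, adjusted p = 0.0011), with all 4 tumors below all 3 cultures, while in Colon 26 the change was 0.31 ± 0.12 (SE, adjusted p = 0.038). The difference of these changes was called (2.54 ± 0.47 SE, adjusted p = 0.00054). One CT-26 tumor of 400 mm3, replicate 3 at 2025 CPM, reached the level of the cultures.

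In culture, Adm was at 0, 0.0373 and 0.0411 CPM in CT-26 and 0.169, 0.252 and 0.231 CPM in Colon 26. Adm in CT-26 tumors was at 3.61, 2.92, 4.3 and 4.09 CPM at 100 mm3, 5.99, 5.51, 4.88 and 4.6 CPM at 400 mm3 and 4.83, 2.67, 5.57 and 4.51 CPM at 800 mm3. Adm in Colon 26 tumors was at 4.47, 4.3, 5.26 and 4.97 CPM at 100 mm3, 3.98, 6.18, 5.81 and 5.64 CPM at 400 mm3 and 5.54, 8.32, 5.34 and 7.53 CPM at 800 mm3. Adm, the vasodilator peptide adrenomedullin, had 0 or 1 count in the CT-26 cultures and 6 to 10 in those of Colon 26. The tumors of 100 mm3 were at least 30.2-fold above the floor in CT-26, and in Colon 26 Adm rose by 4.5 ± 0.19 (SE, adjusted p = 9.3e-08). The called difference of the changes (-2.44 ± 0.53 SE, adjusted p = 0.0052) rests on those near-empty CT-26 cultures, and it turned to 0.12 (adjusted p = 0.5) with limma on log2(FPKM + 1). Bnip3, a mitophagy receptor, had a log2 change of 0.92 ± 0.16 in Colon 26 (adjusted p = 0.00061), below the minimum fold, and had a log2 change of 0.30 ± 0.51 in CT-26 (adjusted p = 0.62), where its tumors ran from 37.8 to 422 CPM. Higd1a, a mitochondrial protein, and Mxi1, an antagonist of Myc, were called in no comparison. The collagen prolyl hydroxylases P4ha1 and P4ha2 were called in none either; P4ha1 was 0.67 ± 0.16 higher in Colon 26 at 800 mm3 (adjusted p = 0.0045), with no overlap.

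**Figure D3:**
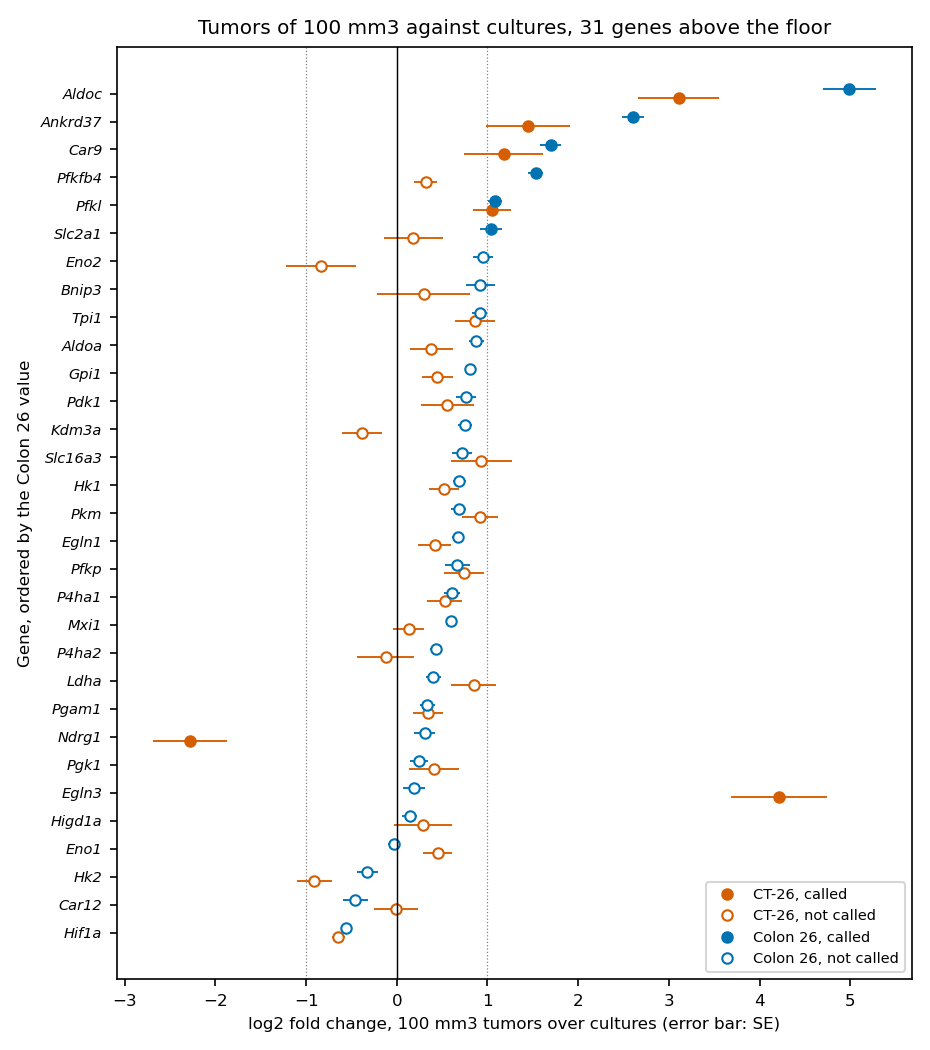
Log2 fold change of tumors of 100 mm3 over cultures for the 31 members above the count floor, in CT-26 (orange) and Colon 26 (blue), with SE; filled points were called and dotted lines mark the minimum fold. Egln3 and Ndrg1 lie far from the Colon 26 points in CT-26, at 4.22 and -2.28, and Eno2 and Kdm3a lie on opposite sides of 0 in the models.

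In all, the difference between the models in the change from culture to 100 mm3 tumor was called for 9 members, 7 higher and 2 lower in Colon 26 (background 8.29% and 9.31%). Marker sums of endothelium, leukocytes and fibroblasts were higher in every tumor of 100 mm3 than in every culture, while the skin epithelium sums overlapped. For skeletal muscle the sum was 1.04 to 558 CPM in these CT-26 tumors and 133 to 1295 CPM in those of Colon 26, against at most 2.54 CPM in the cultures. The endothelial sum of 8 markers was 92.4 to 269 CPM in CT-26 tumors and 157 to 211 in Colon 26 tumors, against 3.24 to 4.55 CPM in the cultures. The leukocyte sum was 535 to 1080 and 751 to 1003 CPM in the tumors, and the fibroblast sum, already 1168 to 1612 CPM in the cultures, was 3170 to 4464 and 4728 to 5756 CPM. The proliferation sum was 661 to 729 CPM in the CT-26 cultures and 1545 to 1869 CPM in the CT-26 tumors of 100 mm3. In Colon 26 it was 1458 to 1551 CPM in the cultures and 1306 to 1404 CPM in those tumors. The part of these cell types and of proliferation in the changes from culture, and in their difference between the models, was not tested.

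Growth of the tumors came next, first by size class. No member was called between 100 and 400 mm3 or between 100 and 800 mm3 in either model by edgeR. The background was 0.0% for CT-26 at 400 and 0.0% at 800 mm3, and 0.0131% and 1.33% for Colon 26. At an unadjusted p under 0.05 there were 17, 1, 2 and 8 members in these comparisons, in that order, beside 22.2%, 10.5%, 12.7% and 20.7% of all genes. DESeq2 called 2 members in the first, Egln3 and Ndrg1 (background 0.546%), and 0 in the others, and limma on log2 FPKM called 0 in all 4. In CT-26 at 400 over 100 mm3, 34 of 35 members had a positive change, with a median of 0.69 where that of all genes was -0.02, and values from -0.41 to 1.59. In the other 3 comparisons the members' medians were 0.02, 0.11 and 0.09.

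Against the exact volume, no member had a called slope in CT-26 (background 0.0%), in Colon 26 (2.21%) or in the difference of the slopes (0.0546%), by edgeR with the same adjusted p and no minimum slope. At an unadjusted p under 0.05 there were 0, 3 and 1 members, beside 9.36%, 16.1% and 8.67% of all genes. DESeq2 and limma called 0 members in each. The members' slopes ran from -0.08 to 0.30 per doubling of volume in CT-26, with a median of 0.03, and from -0.18 to 0.15 in Colon 26, with a median of 0.03. Egln3 had the smallest p in CT-26 (adjusted p = 0.56) and Hk2 in Colon 26 (adjusted p = 0.21).

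The spread between tumors of one size was wide in CT-26. The median within-size SD of the members was 0.44 on the log2 scale in CT-26 and 0.23 in Colon 26, beside 0.17 and 0.15 over all genes tested. The distance between the highest and lowest size mean had a median over members of 0.69 in CT-26 and 0.22 in Colon 26, and the within-size SD exceeded it for 6 of 35 members in CT-26 and 19 in Colon 26. The SD was larger in CT-26 than in Colon 26 for 34 of 35 members, Car12 being the exception. Car9, Bnip3, Ankrd37, Eno2 and P4ha2 had the widest spread in CT-26, from 0.93 to 0.81, and Hif1a the narrowest. A sum over the members mostly follows the abundant enzymes of glycolysis. In CT-26 100 mm3 replicate 1, Pkm, Ldha and Pgk1 stood at 4043, 3158 and 2531 CPM, and Car9 at 36.7 CPM. Summed over the 35 members, the CT-26 tumors of 100 mm3 read 19554, 15474, 11526 and 9606 CPM at volumes of 103.33, 106.18, 136.03 and 145.86 mm3. Those of 400 mm3 read 23674, 23172, 28255 and 12599 CPM at 405.58, 400.47, 403.89 and 464.68 mm3, and those of 800 mm3 15602, 15833, 15580.2 and 11741 CPM at 938.57, 810.36, 822.82 and 853.76 mm3. In Colon 26 the sums ran from 13339 to 16999.8 CPM at 100 mm3, from 14297 to 20441 at 400 mm3 and from 14104 to 18401 at 800 mm3.

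**Figure D4:**
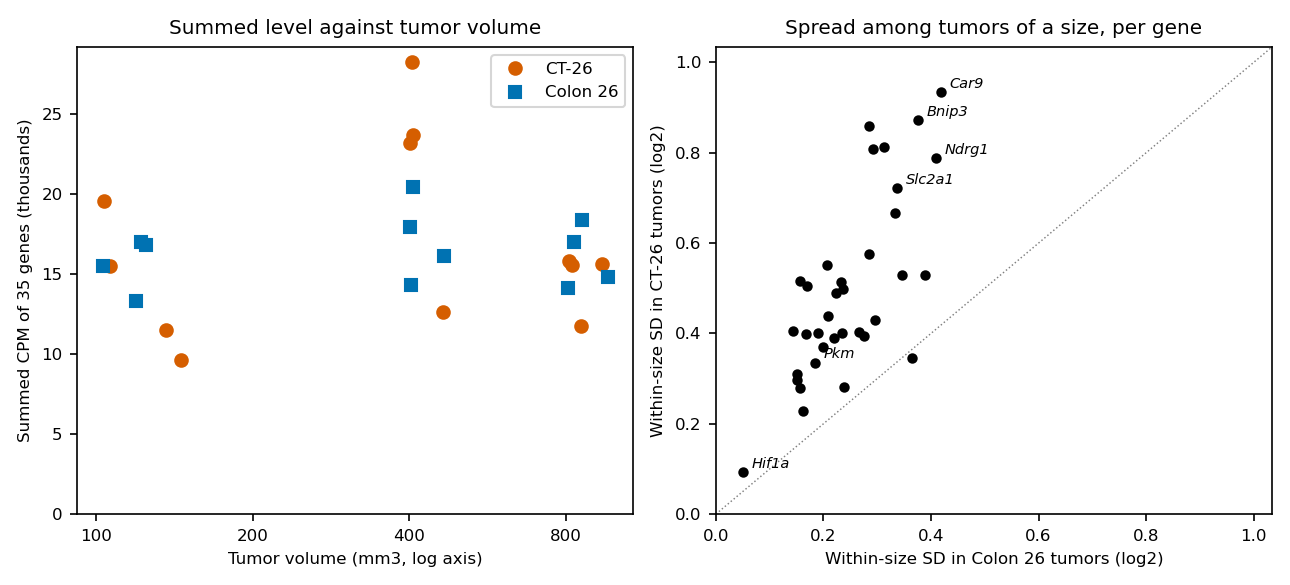
Left, summed CPM of the 35 members, which mostly follows the abundant ones, in each tumor against its volume on a log axis. Right, the within-size SD (log2) of each member in CT-26 against Colon 26, with the line of equality. The CT-26 sums range from 9606 to 28255 CPM, no member's slope on volume was called, and 34 of 35 members lie above the line.

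Within a size, the same tumor was often the highest or the lowest in most members. CT-26 400 mm3 replicate 4 was the lowest of its 4 tumors in 31 of 35 members, where 33.9% of all genes were lowest in it, and replicate 3 was the highest in 26 members, where 32.3% of all genes were highest in it. At 100 mm3, replicate 1 was the highest in 26 members (25.5% of all genes) and replicate 4 the lowest in 30 (24.7%). At 800 mm3, replicate 4 was the lowest in 30 members (29.6%). In Colon 26, replicate 1 at 100 mm3 was the lowest in 30 members (22.2%), replicate 2 at 400 mm3 the highest in 26 (31.8%) and replicate 4 at 800 mm3 the highest in 27 (21%). The members of the pathway are not independent of each other, so these counts are descriptions. Pfkfb3, Pfkfb4 and Aldoc were lowest in CT-26 400 mm3 replicate 3, where most members were highest.

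Marker sums of other cell types also differed between these tumors. The skeletal muscle sum of 8 markers was 358 CPM in CT-26 400 mm3 replicate 4 and 1.06 to 1.55 in the other 3 tumors, and it was 558 CPM in 100 mm3 replicate 4 against 1.04 in replicate 1. At 800 mm3, replicate 4, low in the members, had 21.6 CPM of muscle markers and replicate 3 had 285, and the skin keratin list stood at 81.1 CPM in replicate 4 against 3.52 to 4.16 in the others. The endothelial sum was 98.1 CPM in CT-26 400 mm3 replicate 3 and 189 in replicate 4, and the neutrophil sum 55.1 and 15.7 CPM, with the defining marker Ly6g at most 0.0394 CPM. The leukocyte sum was 243 CPM in replicate 3 and 697 in replicate 4. In Colon 26 at 400 mm3, replicate 1, the lowest in 25 members and in 42.8% of all genes, held 2696 CPM of muscle markers. The part of these cell types in the members' spread was not tested.

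The count of called members for CT-26 at 400 over 100 mm3 depended on single libraries and on the fit. Without 400 mm3 replicate 4, 10 of 35 members were called, all higher at 400 mm3, where 2.18% of all genes were called. They were Slc2a1 (1.5 ± 0.34), Pgk1 (1.06 ± 0.29), Eno2 (1.64 ± 0.40), Pdk1 (1.08 ± 0.29), Car9 (1.39 ± 0.41), Egln3 (1.22 ± 0.33), Ndrg1 (1.88 ± 0.43), P4ha2 (1.07 ± 0.31), Higd1a (1.10 ± 0.33) and Kdm3a (1.19 ± 0.24, log2 and SE), with adjusted p from 0.045 to 0.083. Without 100 mm3 replicate 2, 1 member, Aldoc, was called (background 0.942%), and leaving out any other library gave 0. With the spread estimated from all 30 libraries, 5 were called, Slc2a1, Eno2, Car9, Bnip3 and Ndrg1 (background 2.21%). Between the models at 100 mm3, leaving out CT-26 replicate 1 raised the called members from 3 to 6 (background 13.0%), adding Slc2a1, Bnip3 and Ankrd37, and leaving out CT-26 replicate 2 or Colon 26 replicate 1 gave 5 (background 13.5% and 13.2%), adding Pfkp and Aldoc. Without CT-26 replicate 4 it was 2, Car9 and Egln3, where 14.6% of all genes were called, with Slc16a3 at 0.94 ± 0.25, below the minimum fold. At 800 mm3, the 5 called became 8 without CT-26 replicate 1 (background 15.7%), adding Slc2a1, Pfkl and P4ha2, and 3 without CT-26 replicate 4 (14.3%), which left Car9, Egln3 and Slc16a3. In Colon 26, the slope on volume of Car12 was called without 400 mm3 replicate 1, at -0.20 ± 0.054 per doubling (adjusted p = 0.078, background 5.91%).

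Genes of the pathway outside the list were counted the same way. Of 36 further HIF targets, 4 were higher and 1 lower in Colon 26 at 100 mm3, 5 and 2 of 35 tested at 400 mm3, and 6 and 1 at 800 mm3, beside 13.2%, 14.3% and 14.1% of all genes called in either direction. Lox, the collagen crosslinking oxidase, and Tmem45a led at 800 mm3, by 2.28 ± 0.28 and 1.75 ± 0.31, and Vldlr differed by -1.58 ± 0.18 (adjusted p = 4.4e-05). Of the other glycolysis genes, 2 of 21, 2 of 19 and 2 of 19 tested were higher in Colon 26 at the 3 sizes and 0, 0 and 2 lower. Pdk2, a relative of Pdk1, was higher by 1.89 ± 0.26, 2.31 ± 0.32 and 1.78 ± 0.17 at 100, 400 and 800 mm3 (adjusted p = 0.00039, 0.00049 and 1.8e-05), and Galm, the galactose mutarotase, by 1.38 ± 0.16, 2.08 ± 0.30 and 1.15 ± 0.27. Among 10 genes of oxygen sensing, of which 9 were tested, Arnt2 alone was called, with Colon 26 over CT-26 at -1.48 ± 0.20, -1.89 ± 0.22 and -1.98 ± 0.19. From culture to 100 mm3 tumor, 14 of 35 further HIF targets rose and 4 fell in CT-26, and 17 of 36 rose and 4 fell in Colon 26, beside 22.2% and 10.1% of all genes in CT-26 and 20.8% and 6.12% in Colon 26. Vegfa, the best known HIF target, which was picked out after its values were seen, was among those that fell, at -1.75 ± 0.18 in CT-26 (adjusted p = 5.8e-05) and -1.24 ± 0.072 in Colon 26 (adjusted p = 5.4e-07).

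Per length, the paralog named first in each of 10 pairs was higher in every library in 71 of 80 combinations of pair and group. Slc2a1, Pfkl, Aldoa, Eno1, Hif1a, Egln1 and P4ha1 exceeded Slc2a3, Pfkp, Aldoc, Eno2, Epas1, Egln3 and P4ha2 in all libraries. Egln1 exceeded Egln3 by 3.75 to 3.96 times in the Colon 26 cultures, against 304 to 802 times in the CT-26 cultures. Car9 exceeded Car12 by 17.1 to 19.8 times in Colon 26 tumors of 100 mm3 and by 1.98 to 4.57 times in those of CT-26, and in 1 CT-26 tumor of 800 mm3 Car12 was the higher, with a ratio of 0.842.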

How the data were processed

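RNA from 30 libraries of 8 groups was sequenced by the authors as poly-A TruSeq libraries. The authors made the deposited estimated counts per gene with Array Studio, with replicates kept apart. The FPKM values were also deposited by the authors, scaled to library total and gene length. The aligner settings and how strand was counted are not given in the sources used here.

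Estimated counts, of which 22.98% of non-zero values were not whole, were rounded. Gene symbols were matched for 52207 of 53431 identifiers. Each comparison was fitted on its own libraries with edgeR 4.0.16 (R 4.3.3) quasi-likelihood tests after TMM scaling and filterByExpr, with Benjamini-Hochberg adjustment over all genes tested. Tumor volume entered as log2. Totals ran from 21384730 to 39722586 counts, and intervals of precision come from the replicates. The SE of an edgeR value was calculated back from the F statistic of its test. A level of 3 counts per library was taken as the floor. Tested on simulated data, the fit recovered 200 of 200 changed genes between the cultures. It recovered 189 between CT-26 tumors of 800 and 100 mm3 and 188 for the slope in CT-26. False calls numbered 12, 6 and 19 among 14086, 15111 and 15469 genes. The planted changes were all above the minimum fold and the planted slopes larger than any slope of the members. Genes were simulated independently, without variation shared by a tumor. Whether smaller changes would be found was not tested.

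The members and the other gene lists were chosen with earlier results of these data known. Values in every library are given for up to 5 called members with the largest change in each comparison, for Hif1a, Epas1, Slc2a1, Ldha, Car9 and Pdk1, and for members whose change from culture differed between models. Alternatives were DESeq2 1.42.0, limma 3.58.1 on log2 FPKM with pseudocounts of 1 and 0.1, other scalings, filters and thresholds, 1 fit of all libraries, and each library left out. Promoters came from RefSeq and exon overlaps from GENCODE. No column was left unused.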

Additional observations from a re-analysis of the deposited data

Results flagged for a closer look

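Single tumors stood far from the other 3 of their group in 10 of 210 combinations of member and group of 4. Chance gives about 1 in 20 where values are independent. The members are not independent, and 4 of the 10 lay in CT-26 400 mm3 replicate 4, so the count is a description. In CT-26 400 mm3 replicate 4, Hk1 was 142 CPM, Pfkl 153 CPM, P4ha1 115 CPM and P4ha2 23.4 CPM, each the lowest of its group. In CT-26 800 mm3 replicate 4, Aldoa was 607 CPM and Bnip3 88.4 CPM, again the lowest. In Colon 26, Aldoc was highest in 400 mm3 replicate 3 at 9.28 CPM, Car9 and Egln1 in 400 mm3 replicate 2 at 209 and 177 CPM, and Hk1 in 800 mm3 replicate 4 at 191 CPM.

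The change from culture to 100 mm3 tumor differed between the models, by edgeR's interaction term, for 9 members. Colon 26 minus CT-26 on the log2 scale was 3.21 for Pfkfb3, 1.16 for Pfkfb4, 1.83 for Aldoc, 1.74 for Eno2, 1.11 for Ankrd37, 2.54 for Ndrg1 and 1.09 for Kdm3a. It was -4.08 for Egln3 and -2.44 for Adm. Pfkfb3, Adm and Egln3 had cultures of 1 line at or near 3 counts, so their fitted values depend on the prior count.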

How the results depend on the processing

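With no minimum fold change, the called members numbered 27 between the cultures, 11, 14 and 19 between the models at 100, 400 and 800 mm3, and 25 and 32 from culture to 100 mm3 tumor in CT-26 and Colon 26. Of all genes, 82.6%, 56.5%, 52.2%, 59.4%, 75.5% and 78.9% were called in the same order. Requiring 10 counts in every library left 4 and 5 from culture to tumor and 5 for the difference of the changes, since genes near 0 in culture were then not tested. Limma on log2(FPKM + 0.1) gave 6 between the models at 100 mm3, and limma on log2(FPKM + 1) gave 5 for the difference of the changes, where Adm turned to 0.12. The share of all genes called under that filter and under limma is not given here, so these counts are not set against it. For CT-26 at 400 over 100 mm3, DESeq2 gave 2 (0.546% of all genes) and 1 fit of all libraries gave 5 (2.21%). The cause of these shifts, other than the filter, was not tested.

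Leaving out 1 library at a time gave 7 to 9 called members between the cultures, 2 to 6, 3 to 4 and 3 to 8 between the models at 100, 400 and 800 mm3, 9 to 12 from culture to tumor in either model, 7 to 11 for the difference of the changes and 0 to 10 for CT-26 at 400 over 100 mm3. The slope on volume in Colon 26 gave 0 to 1, and the other comparisons of size and volume gave 0 each time. At 100 mm3, 13.0% of all genes were called without CT-26 replicate 1, which gave 6 members. At 800 mm3, 15.7% were called without CT-26 replicate 1, which gave 8, and 14.3% without replicate 4, which gave 3. For CT-26 at 400 over 100 mm3, 2.18% were called without 400 mm3 replicate 4, which gave 10. The remaining ranges are printed without the share of all genes. No paired analysis was possible because the replicate numbers were given in accession order and tie no samples together across groups. Genes with 3 counts or fewer in every culture of a line have only a lower bound for their fold.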
